A study of Homo sapiens with 9 samples.

Results

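The genes described here are 41 components of the nuclear pore and of the transport machinery that passes through it, chosen by gene name and not by a threshold on these measurements. The choice was made with earlier results of these data known. All 41 names were found on the array, where they were read by 73 of 50238 probes among 31033 gene names. RNA was read on 9 Agilent arrays with 1 dye per array from DLD1 cells, a human colorectal adenocarcinoma line, with 3 arrays, described as biological replicates, in each of 3 groups. Control cells were untreated, Lamin A/C Kd cells received siRNA against LMNA and Lamin B2 Kd cells received siRNA against LMNB2, each at 100 nM for 48 h and each with 1 siRNA sequence. Since the controls were untreated, the effect of transfection and the effect of losing a lamin cannot be told apart in a comparison with control, whereas both knockdown groups were transfected.

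The nuclear pore complex is a ring-shaped channel through the nuclear envelope, built from stacked outer and inner rings, a central channel lined with phenylalanine-glycine (FG) repeats, a basket on the nuclear face and filaments on the cytoplasmic face. Importins and exportins carry proteins and RNA through the FG repeats, and the small GTPase Ran tells them on which side to load and unload. The pore sits in the nuclear lamina, and basket proteins such as NUP153 bind lamins directly.

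Values are log2 processed signals minus the median of the same array, written below as log2 signal. They compare 1 probe across arrays and not different probes with each other. Each comparison was fitted with limma over all 9 arrays and all probes that were well above background in a group compared. A gene was read from its brightest tested probe and was called where its Benjamini-Hochberg adjusted p over all tested probes was below 0.05. A fold change of at least 2 with an unadjusted p below 0.05 was counted beside it, after the fold change and p thresholds of the study's methods, which do not say whether p was adjusted. RNA came from whole cultures, so that fewer cells of a kind and less RNA per cell cannot be told apart.

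The targeted transcripts followed the labels. The log2 fold change of LMNA upon its own depletion was -3.83 (adjusted p = 0.000225) and that of LMNB2 was -2.32 (adjusted p = 0.000523). No other lamin gene was called against control. LMNB1 was nonetheless lower in Lamin A/C Kd, at 4.09, 4.24 and 3.72 against 4.83, 4.81 and 5.38 in controls, and read 4.31, 5.32 and 3.46 in Lamin B2 Kd. In Lamin A/C Kd all 3 lamin genes were lower with an unadjusted p below 0.05 (14.7% of all genes) and without overlap with the controls. Between 65.6 and 74.1% of spots per array were well above background and 0 spots were saturated. Of 10 colon epithelial markers on the array 9 were above background on all 9 arrays. The same held for 4 of 5 leukocyte, 1 of 5 fibroblast and 2 of 4 endothelial markers, whereas PTPRC, COL1A1, COL1A2 and CDH5 were above background on 2 arrays each and COL3A1 on 1. Lamin B2 Kd replicate 3 stood apart from the rest. It was the only array on its slide, its deposited signal had not been divided by a fitted spatial trend as that of the other 8 had, and its differences from the other Lamin B2 Kd arrays had an SD of 0.56 and 0.58 against 0.25 to 0.33 for every other pair within a group. Results are therefore also given without it, which leaves the 8 arrays of 1 slide.

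Upon Lamin A/C depletion, 6 of the 41 genes were lower and 0 were higher. These were NUPL1, a channel nucleoporin, NUP98, an FG nucleoporin found on both faces of the pore, NUP188 of the inner ring, NUP107 of the outer ring, XPO1, the main exportin for proteins with a leucine-rich export signal, and NUP88 of the cytoplasmic face. Their signals were between 62.1 and 74.5% of control, and 0 of the 41 were past 2-fold, a threshold that 2.2% of all genes passed. Among all 21868 genes tested 8.94% were called in either direction, 5.78% lower and 3.15% higher, against 14.6% of the 41. The count depended on which arrays were used. Without Lamin B2 Kd replicate 3, which is no part of the comparison but widens the shared estimate of spread, 15 of 41 were lower and 0 higher, against 20.9% of all genes. Without any 1 of Control replicates 1, 2 or 3 or Lamin A/C Kd replicates 1 or 2, only 1 of 41 was called, and the share of all genes called fell to between 2.73 and 3.25%.

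Signs and unadjusted values over all 41 genes are given as a description, since no test of the group was run. The log2 fold change was below 0 for 37 of 41 genes, compared with 55.5% of all genes tested, and its median was -0.30 compared with -0.04. An unadjusted p below 0.05 with a lower signal was found for 17 of 41 genes (14.7% of all genes), and for 24 of 41 all 3 Lamin A/C Kd arrays lay below all 3 controls (25.2% of all genes). Across the 41 genes, the median difference from the control mean was -0.03, -0.02 and 0.05 on the control arrays, -0.34, -0.32 and -0.18 on the Lamin A/C Kd arrays, and -0.07, -0.10 and -0.35 on the Lamin B2 Kd arrays. The Lamin A/C Kd arrays thus lay below every control array, while among Lamin B2 Kd arrays the lowest median belonged to replicate 3, on which the median over all genes tested was itself -0.31. Another scaling moved both these values and those of all genes. With a 75th percentile shift 32 of 41 genes were below 0 in Lamin A/C Kd and their median was -0.22 next to 0.04 over all genes, and with quantile normalization 29 of 41 were below 0 and the median was -0.16 next to 0.02. In Lamin B2 Kd the median of all genes moved from -0.14 to 0.06 with the 75th percentile shift.

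**Figure D1:**
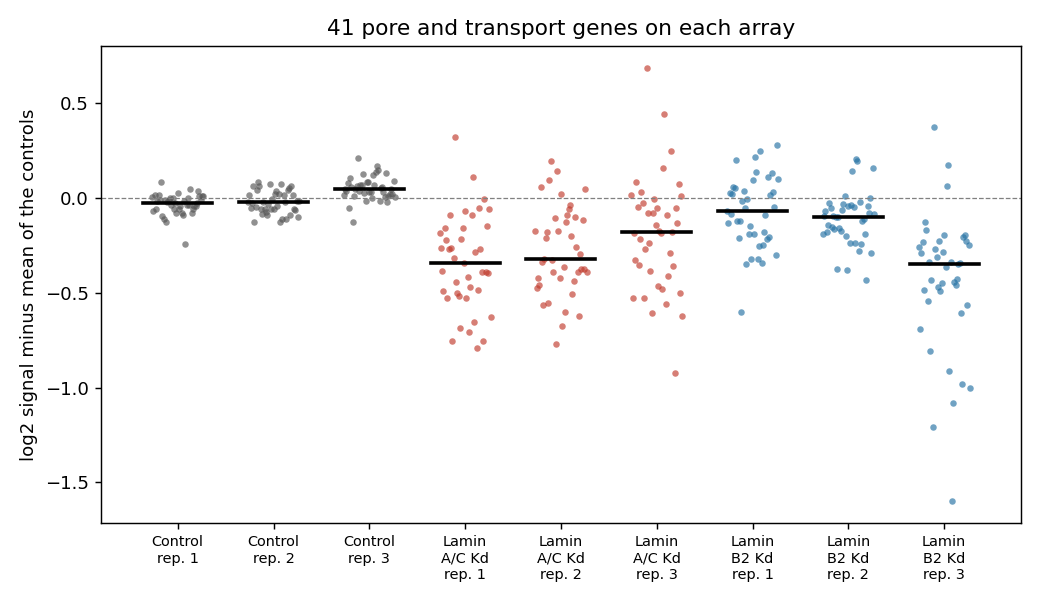
Log2 signal of the 41 pore and transport genes (brightest probe) minus the mean of the 3 controls, on each of the 9 arrays. Each point is a gene and each black bar the median of the array. The bars of the Lamin A/C Kd arrays lie at -0.34, -0.32 and -0.18 and that of Lamin B2 Kd replicate 3 at -0.35.

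**Figure D2:**
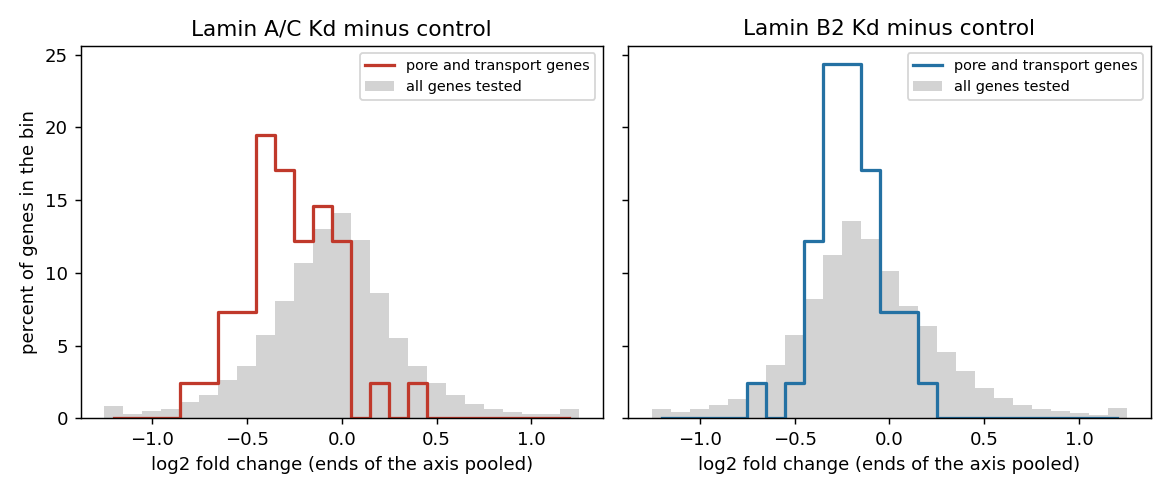
Distribution of log2 fold changes of the 41 genes (colored line) and of all genes tested (gray bars) in each knockdown against control, as percent of genes per bin, with values beyond the ends of the axis pooled in the last bins. In Lamin A/C Kd the 41 genes center at -0.30 against -0.04 for all genes, and for Lamin B2 Kd at -0.22 against -0.14.

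The outer ring, or Y complex, forms the scaffold of the pore on both faces, and all 7 of its measured subunits had a log2 fold change below 0 in Lamin A/C Kd (median -0.27), of which 1 was called. NUP107, the subunit that gives the complex its other name, had a log2 signal of 7.82, 7.90 and 7.90 in controls, 7.35, 7.19 and 7.41 in Lamin A/C Kd, and 7.68, 7.63 and 7.51 in Lamin B2 Kd. The groups did not overlap, with Lamin A/C Kd lowest. The log2 fold change was -0.55 ± 0.11 (SE, n = 3 per group, adjusted p = 0.017) in Lamin A/C Kd and -0.26 ± 0.11 (adjusted p = 0.19) in Lamin B2 Kd. NUP37, NUP43, NUP85, NUP133, NUP160 and SEH1L ranged from -0.42 to -0.11 in Lamin A/C Kd. NUP85 and SEH1L were among the genes called once Lamin B2 Kd replicate 3 was left out, at -0.38 (adjusted p = 0.030) and -0.42 (adjusted p = 0.018).

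The inner ring anchors the scaffold to the membrane and to the channel proteins. All 5 of its genes were below 0 in Lamin A/C Kd (median -0.32) and 1 was called. NUP188, a large scaffold subunit, measured 3.42, 3.43 and 3.50 in controls, 2.66, 2.95 and 3.04 in Lamin A/C Kd, and 3.27, 3.43 and 2.99 in Lamin B2 Kd. Every Lamin A/C Kd array lay below the controls, and of the Lamin B2 Kd arrays only replicate 3 fell into the range of Lamin A/C Kd. Depletion of Lamin A/C gave a log2 fold change of -0.57 ± 0.15 (adjusted p = 0.045), and depletion of Lamin B2 -0.22 ± 0.15 (adjusted p = 0.38). NUP35, NUP93, NUP155 and NUP205 ranged from -0.34 to -0.09 in Lamin A/C Kd.

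Of the 3 channel nucleoporins, which form the FG-repeat core of the permeability barrier, all were below 0 in Lamin A/C Kd and 1 was called. NUPL1, now named NUP58, gave 5.39, 5.35 and 5.41 in controls, 4.70, 4.62 and 4.78 in Lamin A/C Kd, and 5.38, 5.35 and 5.16 in Lamin B2 Kd. The Lamin A/C Kd arrays were far below both other groups, whose ranges overlapped. Its log2 fold change was -0.69 ± 0.11 (adjusted p = 0.0078), or 62.1% of control, the largest fall among the called genes. Of the 6 called genes, NUPL1 was the only one called under each of the 20 other settings and left-out arrays under which it was measured. Its log2 fold changes there were between -0.74 and -0.46. It could not be read from the authors' table, which gave 37 of the 41 genes. The 2-fold threshold, which 0 of the 41 genes passed, is not counted among these settings, here or below. Its partners in the channel, NUP54 and NUP62, had log2 fold changes of -0.33 (adjusted p = 0.14) and -0.16 (adjusted p = 0.67).

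The nuclear basket faces the lamina and chromatin, and none of its 3 genes was called against control. NUP153, which binds lamins and docks the basket, measured 5.74, 5.58 and 5.75 in controls, 5.20, 5.25 and 5.39 in Lamin A/C Kd, and 5.60, 5.44 and 5.26 in Lamin B2 Kd. The Lamin A/C Kd arrays lay below all controls, while Lamin B2 Kd overlapped both groups. Its log2 fold change was -0.40 ± 0.13 (adjusted p = 0.082) upon Lamin A/C depletion, which passed without Lamin B2 Kd replicate 3 (adjusted p = 0.022), and -0.25 ± 0.13 (adjusted p = 0.25) upon Lamin B2 depletion. TPR, the protein of the basket filaments, measured 6.37, 6.30 and 6.41 in controls, 6.21, 6.25 and 6.43 in Lamin A/C Kd, and 6.31, 6.36 and 6.14 in Lamin B2 Kd. All 3 groups overlapped, and the 95% interval of the log2 fold change ran from -0.33 to 0.20 upon Lamin A/C depletion and from -0.36 to 0.17 upon Lamin B2 depletion. NUP50, which binds importin alpha and releases its cargo, had a log2 fold change of -0.50 ± 0.15 (adjusted p = 0.070) in Lamin A/C Kd, next to 0.15 ± 0.15 (adjusted p = 0.53) in Lamin B2 Kd.

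On the cytoplasmic side, where export complexes are taken apart, 6 of 7 genes were below 0 in Lamin A/C Kd (median -0.36) and 2 were called. NUP98, which also works with RAE1 in mRNA export, measured 6.31, 6.27 and 6.39 in controls, 5.57, 5.77 and 5.80 in Lamin A/C Kd, and 6.20, 6.22 and 5.89 in Lamin B2 Kd. Lamin A/C Kd was lowest with no overlap with either group, at a log2 fold change of -0.61 ± 0.13 (adjusted p = 0.021) against -0.22 ± 0.13 (adjusted p = 0.32) in Lamin B2 Kd. NUP88, which holds NUP214 at the pore, measured 6.64, 6.67 and 6.78 in controls, 6.21, 6.24 and 6.37 in Lamin A/C Kd, and 6.61, 6.52 and 6.47 in Lamin B2 Kd. Lamin A/C Kd was again below all other arrays, with a log2 fold change of -0.43 ± 0.11 (adjusted p = 0.042), next to -0.17 ± 0.11 (adjusted p = 0.36) in Lamin B2 Kd. Of 21 alternative settings and left-out arrays, the call of NUP107 stood under 15, that of NUP98 under 14, that of XPO1 under 13, and those of NUP88 and NUP188 under 10 each. RANBP2, the filament protein that is also a SUMO ligase, measured 7.34, 7.46 and 7.45 in controls, 7.36, 7.32 and 7.67 in Lamin A/C Kd, and 7.20, 7.30 and 7.07 in Lamin B2 Kd. Controls and Lamin A/C Kd overlapped, while all 3 Lamin B2 Kd arrays lay below every other array, by -0.23 ± 0.13 against control (adjusted p = 0.31). On this brightest probe the 95% interval of the log2 fold change was -0.26 to 0.32 in Lamin A/C Kd. A dimmer RANBP2 probe differed, at 0.45 in Lamin A/C Kd (adjusted p = 0.31), with every Lamin A/C Kd array above every control. Its Lamin B2 Kd arrays, at 4.39, 4.16 and 3.29, overlapped the controls. Near-identical copies (the RGPD genes) may share signal with RANBP2. AAAS, picked out here after its values were seen, had similar log2 fold changes in both knockdowns, -0.42 (adjusted p = 0.053) and -0.39 (adjusted p = 0.095).

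The importin beta family holds the carriers themselves, and all 4 of its genes were below 0 in Lamin A/C Kd (median -0.43) with 1 called. XPO1 measured 7.48, 7.44 and 7.55 in controls, 6.96, 6.93 and 7.14 in Lamin A/C Kd, and 7.55, 7.44 and 7.32 in Lamin B2 Kd. Lamin A/C Kd was apart from both other groups, with a log2 fold change of -0.48 ± 0.11 (adjusted p = 0.032), and Lamin B2 Kd overlapped the controls (-0.06 ± 0.11, adjusted p = 0.77). KPNB1, the partner of importin alpha, TNPO1 and CSE1L, which returns importin alpha to the cytoplasm, ranged from -0.55 to -0.28 in Lamin A/C Kd, and all 3 had every Lamin A/C Kd array below every control. KPNB1 and TNPO1 were called without Lamin B2 Kd replicate 3 (adjusted p = 0.019 and 0.0080).

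The importin alpha adaptors, which recognize classical import signals, stood nearer to 0. Of 7 genes 4 were below 0 in Lamin A/C Kd, the median was -0.01 and 0 were called, also without Lamin B2 Kd replicate 3. KPNA2, the adaptor typical of cycling cells, measured 9.86, 9.97 and 9.92 in controls, 9.65, 9.66 and 9.74 in Lamin A/C Kd, and 10.03, 9.81 and 9.58 in Lamin B2 Kd. Lamin A/C Kd lay below the controls by a log2 fold change of -0.23 ± 0.13 (adjusted p = 0.33), and Lamin B2 Kd overlapped them (-0.11 ± 0.13, adjusted p = 0.60). KPNA5 had the highest value of the 41 genes in Lamin A/C Kd, a log2 fold change of 0.40 (adjusted p = 0.18). Among the 3 genes of the Ran cycle, RCC1, which loads Ran with GTP on chromatin, had the lowest value of the 41, -0.77 ± 0.22 (adjusted p = 0.063), and passed without Lamin B2 Kd replicate 3 (adjusted p = 0.0069). RAN itself was at -0.03 on its brightest probe (adjusted p = 0.91) and at -0.35 and -0.31 on its other probes (adjusted p = 0.14 and 0.22), and RANGAP1 was at -0.42 (adjusted p = 0.45). The membrane nucleoporins NUP210 and POM121 were at -0.16 (adjusted p = 0.73) and -0.11 (adjusted p = 0.66).

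**Figure D3:**
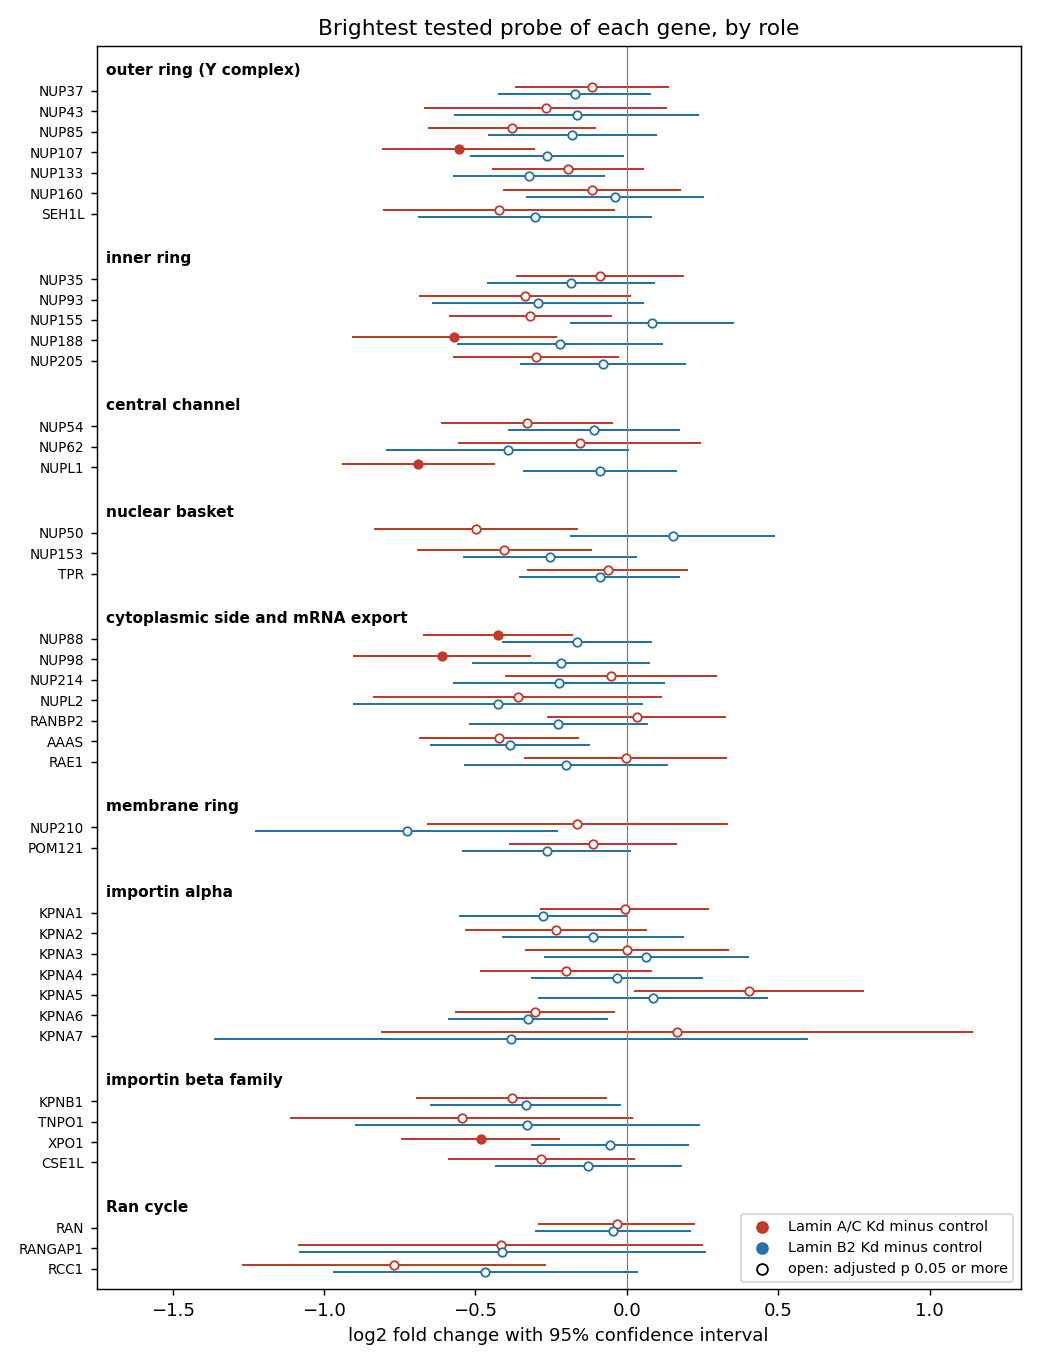
Log2 fold change against control with its 95% confidence interval for the brightest tested probe of each of the 41 genes, grouped by role, in Lamin A/C Kd (red) and Lamin B2 Kd (blue). Filled points passed an adjusted p of 0.05, which were the 6 genes named above for Lamin A/C Kd and 0 for Lamin B2 Kd.

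In Lamin B2 Kd, 0 of 41 genes passed the adjusted test in limma, compared with 4.38% of all 22123 genes tested (3.92% lower and 0.466% higher), and 6 of 41 had an unadjusted p below 0.05, all lower, compared with 24.4% of all genes in either direction and 20.1% lower. Groups did not overlap for 15 of 41 genes (32.9% of all genes), of which 14 were lower (27.3%), and 0 of 41 were past 2-fold on the brightest probe (2.03%). The log2 fold change was below 0 for 37 of 41 genes and its median was -0.22, next to 66.7% and -0.14 over all genes, which is a smaller gap than in Lamin A/C Kd. Without replicate 3 the count stayed at 0 of 41 (4.73% of all genes), 30 of 41 were below 0 and the median was -0.10 next to -0.06 over all genes. With quantile normalization the median of the 41 was 0.0069 next to -0.0016 over all genes, and 0 were called. The lowest value belonged to NUP210, a membrane-spanning nucleoporin, with 4.72, 4.76 and 5.06 in controls, 4.53, 4.94 and 4.58 in Lamin A/C Kd, and 4.25, 4.47 and 3.64 in Lamin B2 Kd. All Lamin B2 Kd arrays were below all others, replicate 3 by the most. The difference from control in NUP210 was -0.73 ± 0.22 (adjusted p = 0.098), and -0.49 ± 0.16 (adjusted p = 0.15) without replicate 3. Without Lamin B2 Kd replicate 2 it was -0.90 (adjusted p = 0.0499), and NUP210 was the only gene of the 41 called, where 6.5% of all genes were.

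The 2 knockdowns were also compared with each other, a comparison in which both groups had been transfected. Of 41 genes 3 were lower in Lamin A/C Kd than in Lamin B2 Kd and 0 were higher, next to 15.7% of all 21852 genes tested, 4.53% lower and 11.2% higher. An unadjusted p below 0.05 with a lower signal was found for 8 of 41 (9.9% of all genes), the groups lay apart with Lamin A/C Kd lower for 7 of 41 (10.4%), and 0 of 41 were past 2-fold on the brightest probe (4.21%). NUP50 measured 7.38, 7.41 and 7.58 in controls, 6.75, 6.86 and 7.27 in Lamin A/C Kd, and 7.59, 7.60 and 7.63 in Lamin B2 Kd. The Lamin A/C Kd arrays lay below the controls and the Lamin B2 Kd arrays just above them, and the knockdowns differed by -0.65 ± 0.15 (adjusted p = 0.019). NUPL1 and XPO1, given above, differed by -0.60 ± 0.11 (adjusted p = 0.0078) and -0.43 ± 0.11 (adjusted p = 0.035). NUP155 of the inner ring was next, at -0.40 ± 0.12 (adjusted p = 0.0504), just above the threshold. Without Lamin B2 Kd replicate 3, 9 of 41 were lower in Lamin A/C Kd and 0 higher (19.2% of all genes). Without Lamin A/C Kd replicate 1 or 2, 1 of 41 was called (9.34 and 8.6% of all genes). The 2 comparisons with control share their control arrays, so their values are given side by side and their likeness was not tested.

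**Figure D4:**
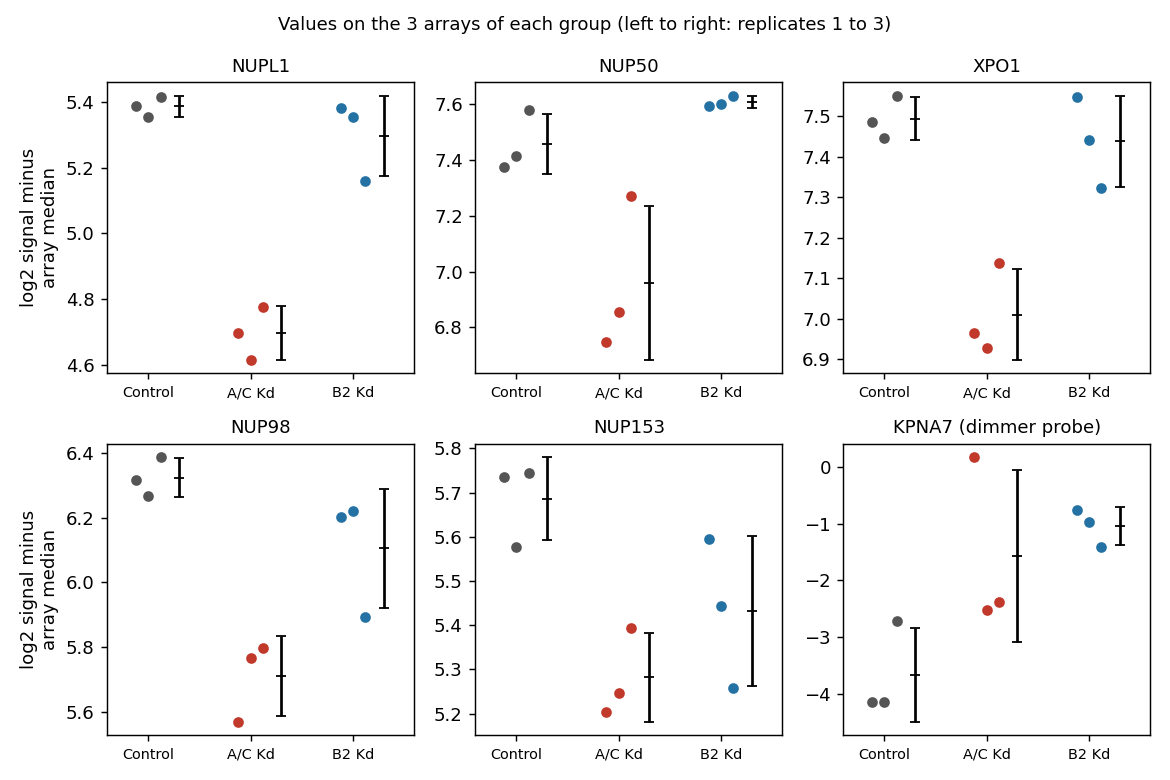
Log2 signal on each array (points, replicates 1 to 3 from left to right) with mean and SD (bars) for the 3 genes that differed between the knockdowns (NUPL1, NUP50, XPO1), for NUP98 and NUP153, and for the dimmer KPNA7 probe. For NUPL1, NUP50, XPO1 and NUP98 the 3 Lamin A/C Kd arrays lie below all 6 other arrays.

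Several genes were read by more than 1 probe, and the probes did not always move together. In Lamin A/C Kd 19 of 41 genes had more than 1 tested probe. No gene had probes called in opposite directions, and 10 of 41 were called on at least 1 probe, next to 11.1% of all genes. NUP98 was called on all 3 of its probes, with log2 fold changes of -0.76, -0.72 and -0.61, and NUPL1 on 2 of 3 (-0.69, -0.56 and -0.13). All 3 probes of NUP50 were called in the comparison of the knockdowns, at -0.51, -0.65 and -0.71. NUP160, RAE1, POM121 and SEH1L were called lower only on a probe that was not the brightest.

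SEH1L, an outer ring subunit that also belongs to the GATOR complex of nutrient sensing, held the largest fall of any probe of the 41 genes in Lamin A/C Kd and the only one past 2-fold. Of all genes 2.94% had such a probe. For SEH1L it measured 6.04, 5.94 and 6.20 in controls, 4.63, 4.72 and 4.89 in Lamin A/C Kd, and 5.88, 5.75 and 5.72 in Lamin B2 Kd. The log2 fold change was -1.31 ± 0.12 (40.2% of control, adjusted p = 0.00086) in Lamin A/C Kd and -0.28 ± 0.12 (adjusted p = 0.21) in Lamin B2 Kd, and Lamin A/C Kd differed from Lamin B2 Kd by -1.03 (adjusted p = 0.0012). Together with POM121 it was 1 of 2 genes with a probe past 2-fold between the knockdowns, next to 5.27% of all genes. The brightest SEH1L probe measured 6.63, 6.72 and 6.75 in controls, 6.44, 6.22 and 6.17 in Lamin A/C Kd, and 6.57, 6.61 and 6.01 in Lamin B2 Kd. It was also lower on every Lamin A/C Kd array, by -0.42 ± 0.17 (adjusted p = 0.16). The array annotates both probes with the same transcript accession, and which transcript forms each of them reads was not tested. POM121, whose near-identical copy POM121C may share signal, had 7 tested probes. Of these 2 fell in Lamin A/C Kd, by -0.996 (adjusted p = 0.013) and -0.64 (adjusted p = 0.029), and the other 5 lay between -0.11 and 0.15. The 2 probes of RCC1 were at -0.77 and 0.01.

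**Figure D5:**
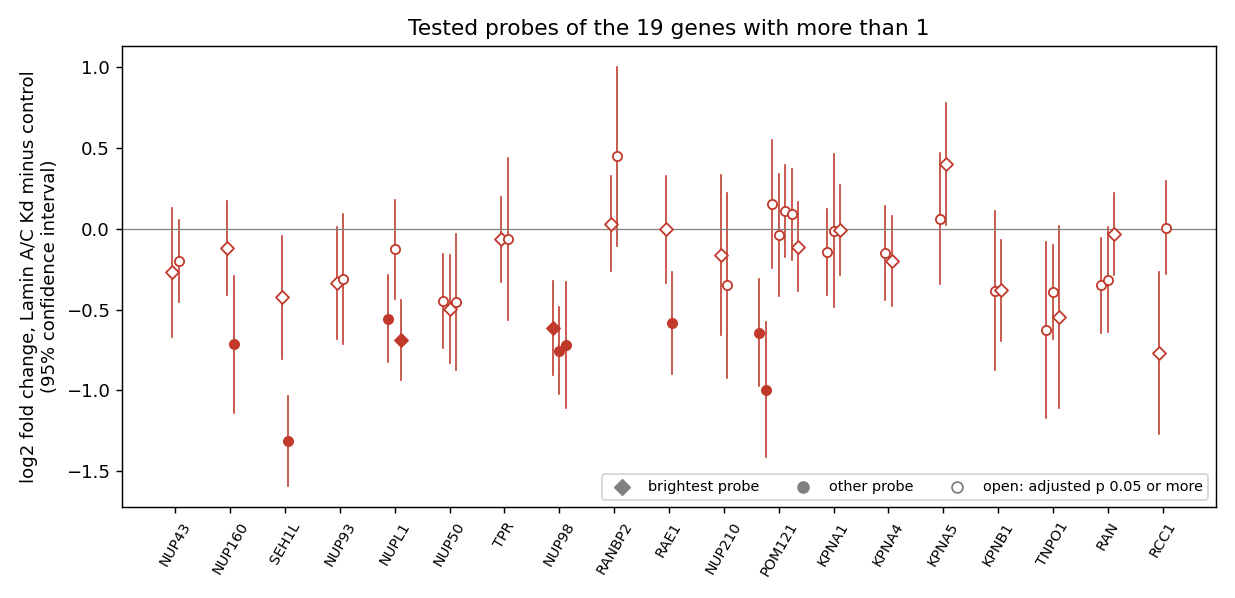
Log2 fold change in Lamin A/C Kd against control with its 95% confidence interval for each tested probe of the 19 genes with more than 1 tested probe. Diamonds mark the brightest probe of a gene and filled symbols an adjusted p below 0.05, and the lowest point is the SEH1L probe at -1.31.

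KPNA7, an importin alpha adaptor known from oocytes and early embryos for which the study also designed PCR primers, was read by 2 probes. They are shown because they gave different answers, and each has 1 reading frame without a stop codon. The capitals mark the stretch shared with the forward primer of a pair the study named KPNA7-A, at bases 26 to 45 of the second probe, and the first probe holds none of the 4 KPNA7 primers.
GT_HS_44k_2079: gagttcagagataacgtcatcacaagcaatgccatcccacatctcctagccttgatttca
GT_HS_44k_2080: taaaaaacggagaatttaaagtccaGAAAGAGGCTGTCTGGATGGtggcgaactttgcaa

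The first KPNA7 probe was above background on all 9 arrays, with -0.84, -0.52 and -0.42 in controls, -0.48, -0.65 and -0.15 in Lamin A/C Kd, and -0.35, -0.39 and -2.19 in Lamin B2 Kd. Lamin A/C Kd overlapped the controls. Lamin B2 Kd replicates 1 and 2 lay above every control, and replicate 3 lay below every control. The log2 fold changes were 0.17 ± 0.43 (adjusted p = 0.88) in Lamin A/C Kd and -0.38 ± 0.43 (adjusted p = 0.59) in Lamin B2 Kd. The latter turned to 0.23 ± 0.17 (adjusted p = 0.52) without Lamin B2 Kd replicate 3. The second probe exceeded background on 0 of 3 control arrays, 1 of 3 Lamin A/C Kd arrays and 3 of 3 Lamin B2 Kd arrays. It measured -4.14, -4.14 and -2.72 in controls, 0.18, -2.52 and -2.37 in Lamin A/C Kd, and -0.75, -0.96 and -1.40 in Lamin B2 Kd. Every Lamin B2 Kd array exceeded every control, at least 2.15-fold against the dimmest level still detected on the control arrays (limma, unadjusted p = 0.0037, adjusted p = 0.065). The probe entered this test only because it was above background on the Lamin B2 Kd arrays, and its control values lay below background. Its p values and the order of the groups therefore cannot be used as support for a rise. The study also reports qRT-PCR of candidate genes, with a primer set from the array feature and a set from elsewhere in each gene. It states that all these candidates changed in the direction seen on its arrays. The text of the study names KPNA7 only in its primer list and gives no value for it. No other probe of the 41 genes was past the 2-fold threshold in Lamin B2 Kd, where 2.72% of all genes had such a probe.

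The promoters of the genes were also set side by side. RefSeq start sites of 36 of the 41 genes were matched, each with 250 bases before and 50 after the start (GRCh38.p14). In these windows 6 short motifs were looked for on either strand as exact letters, so that other forms of the same sites were missed. They were CCAAT (the NF-Y box), TTTGAA (the CHR element of cell cycle genes), TGCGCA (part of the NRF1 site) and CCGGAA (the ETS core). The E2F site was searched in the form TTCCCGC, with TTGGCGC as the other form. Read on the reverse strand as ATTGG, the NF-Y box can share letters with the second E2F form. The box CCAAT was present in 16 of 36 promoters, or 44.4%, next to 34.6% of all 35116 promoters. CCGGAA was in 41.7% next to 17.2%, TTCCCGC in 25% next to 6.55%, TTTGAA in 22.2% next to 15.2%, TGCGCA in 13.9% next to 8.24%, and TTGGCGC in 5.56% next to 3.04%. These shares are descriptions of the letters in the windows. The 35116 promoters were not matched to those of the 36 genes in G and C content or in kind of gene. Of the 6 genes called lower in Lamin A/C Kd, 4 held CCAAT, 3 CCGGAA, 2 TTCCCGC and 1 TTTGAA.

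The 250 bases before the start are shown for the 4 called genes with the largest falls, 5′ to 3′ in the direction of the gene, to let their sequence be compared. Capitals mark matches to the 6 motifs on either strand. NUPL1 lies at chr13:25301375-25301624 (plus strand), NUP98 at chr11:3797547-3797796 (minus strand), NUP188 at chr9:128947449-128947698 (plus strand) and NUP107 at chr12:68686728-68686977 (plus strand). NUP188 holds none of the motifs in this window and is 71.2% G and C.
NUPL1: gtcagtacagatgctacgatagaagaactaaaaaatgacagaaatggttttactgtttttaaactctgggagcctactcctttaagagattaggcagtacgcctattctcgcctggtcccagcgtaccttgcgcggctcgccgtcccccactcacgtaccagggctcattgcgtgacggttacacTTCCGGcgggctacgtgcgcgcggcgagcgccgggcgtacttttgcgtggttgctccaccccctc
NUP98: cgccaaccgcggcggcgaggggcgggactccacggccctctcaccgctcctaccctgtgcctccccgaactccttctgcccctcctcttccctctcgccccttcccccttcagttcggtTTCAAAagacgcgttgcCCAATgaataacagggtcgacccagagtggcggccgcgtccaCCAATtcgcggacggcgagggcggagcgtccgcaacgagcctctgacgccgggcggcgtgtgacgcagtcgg
NUP188: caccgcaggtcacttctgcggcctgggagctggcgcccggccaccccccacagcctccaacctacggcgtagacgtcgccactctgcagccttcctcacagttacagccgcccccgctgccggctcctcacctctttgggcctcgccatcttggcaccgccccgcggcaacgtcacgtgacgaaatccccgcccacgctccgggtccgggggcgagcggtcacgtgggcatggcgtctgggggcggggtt
NUP107: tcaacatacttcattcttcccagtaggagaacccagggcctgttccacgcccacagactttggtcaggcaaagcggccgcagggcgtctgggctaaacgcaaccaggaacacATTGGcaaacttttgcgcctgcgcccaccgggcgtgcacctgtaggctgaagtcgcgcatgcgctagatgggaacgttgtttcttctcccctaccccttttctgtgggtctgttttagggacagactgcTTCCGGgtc

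Other genes of the same pathways were read from a list of 35 further pore and transport names, of which 31 were tested. In Lamin A/C Kd 5 were lower and 1 was higher, next to 5.78 and 3.15% of all genes tested. The median of the 31 was -0.21 next to -0.04 over all genes, and 24 of 31 were below 0 next to 55.5%. The lower ones were NXT1, the cofactor of the mRNA exporter NXF1, at -0.98 (adjusted p = 0.0030), RANBP3, a cofactor of XPO1, at -0.78, NUP62CL, a relative of NUP62, at -0.78, MCM3AP, a scaffold of the mRNA export complex TREX-2, at -0.69, and RANBP1, a Ran regulator, at -0.54. The higher one was the import carrier IPO7, at 1.09 (adjusted p = 0.017), which was past 2-fold. In Lamin B2 Kd IPO7 was at 0.88 (adjusted p = 0.059), and its dimmer probe was called at 1.02 (adjusted p = 0.0091). On the brightest probe 0 of 31 were called there (4.38% of all genes) and 6 had an unadjusted p below 0.05 (24.4%). The median of the 31 was -0.22 next to -0.14 over all genes.

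Genes of proliferation were lower as well. Of 23 tested, 23 were below 0 in Lamin A/C Kd (55.5% of all genes), with a median of -0.48 next to -0.04 over all genes. Of these, 9 were called lower (5.78% of all genes), among them the replication genes MCM6 at -1.22 and MCM4 at -0.80 and the mitotic kinase AURKA at -0.74. Over the 23 genes the median difference from the control mean was -0.60, -0.44 and -0.43 on the Lamin A/C Kd arrays. It was -0.13, -0.18 and -0.41 on the Lamin B2 Kd arrays, where 0 were called (4.38% of all genes). The part of these genes in the shift of the pore and transport genes was not tested.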

How the data were processed

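The authors deposited, for each of the 9 arrays, the Feature Extraction output (version 10.5 per the labels), whose processed signal is a background-subtracted intensity, and a table of log2 values, brought to a common array median and then centered row by row. Its Lamin B2 Kd columns were numbered in another order than the titles, so they served as a group. The deposited files also give the fitted spatial trend as a ratio, which was used only to correct Lamin B2 Kd replicate 3. Here each log2 value was set against the median of the non-control spots of its array, and replicate spots were averaged after outlier spots had been dropped. A probe was tested where at least 0.5 of its spots were well above background on all 3 arrays of a compared group. Groups were compared with limma 3.58.1 (R 4.3.3) over all 9 arrays with group as the only term. Precision is limited by 3 arrays per group. The fit was tested on simulated data. The members and lists were chosen with earlier results of these data known. Genes described in full were those called on the brightest probe, those with a probe past 2-fold, and KPNA7, NUP153, NUP88, TPR, RANBP2 and KPNA2. RCC1, AAAS, KPNA5, NUP210, POM121 and NUP155 were picked after their values were seen. So were NUP85, KPNB1 and TNPO1, given for their calls without Lamin B2 Kd replicate 3. Alternatives covered scaling, background correction, detection filter, pairing, slide, array weights, probe choice and left-out arrays. Replicate numbers of the titles showed no clear pairing of the arrays.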

Additional observations from a re-analysis of the deposited data

Results flagged for a closer look

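For 3 of the 41 genes the effects of the knockdowns were unequal by a test of the difference itself (limma). That is 7.32%, next to 15.7% of all genes tested. The log2 difference, Lamin A/C Kd minus Lamin B2 Kd, was -0.60 for NUPL1, -0.65 for NUP50 and -0.43 for XPO1. NUPL1 stayed called under each of 20 alternatives (adjusted p between 0.00062 and 0.045), NUP50 under 18 of 21 and XPO1 under 10 of 21. The 2-fold threshold, which 0 of the 41 genes passed, was not counted among these alternatives. With 3 arrays per group single arrays were not screened as outliers.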

How the results depend on the processing

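Genes called lower or higher in Lamin A/C Kd against control numbered 6 of 41. Here and below the share of all genes called under the same setting is in parentheses. The count was 11 with the 75th percentile shift (15.2%), 20 with normexp background correction (16.2%), 13 with only the 2 groups compared (20.1%), 19 with array weights (24.3%), of which 18 lower and 1 higher, 15 with the slide as a block (18.6%), 2 with no filter on detection (2.92%), 3 of 37 in the authors' table (2.56%) and 0 at 2-fold with an unadjusted p (2.2%). Leaving out 1 array gave 1 to 15 (2.73 to 20.9%). For Lamin B2 Kd the count of 0 became 3 with normexp (10.4%), and leaving out 1 array gave 0 to 1 (0.166 to 6.5%). Between the knockdowns the count of 3 became 12 with the 75th percentile shift (22.3%), 10 with quantile normalization (22%), 9 with normexp (17.4%), 8 with array weights (19%), 6 with the slide as a block (18.8%), 6 with the mean of a gene's probes (15.5%), 1 with only the 2 groups (7.89%), 1 in the authors' table (6.21%) and 0 at 2-fold (4.21%), and leaving out 1 array gave 1 to 9 (8.6 to 19.2%). The median of the 41 genes was -0.16 with quantile normalization in Lamin A/C Kd, next to 0.02 over all genes. In Lamin B2 Kd it was -0.0222 with the 75th percentile shift, which moves every gene of an array alike and took the median of all genes to 0.06, and 0.0069 with quantile normalization, next to -0.0016. Leaving out 1 array gave medians of -0.31 to -0.25, -0.26 to -0.10 and -0.21 to 0.0061 in the 3 comparisons, the last of these without Lamin B2 Kd replicate 1, next to 0.07 over all genes. Pairing was judged by the replicate numbers of the titles. Deviations of same-numbered arrays correlated between -0.09 and 0.15, over 0.1 in 1 of 9 pairs. With these numbers as a replicate block 1, 0 and 2 genes were called (4.64, 0.832 and 10.9%). The authors' table numbers the Lamin B2 Kd arrays in another order, and a block in that order was not run. Dividing the spatial trend out of Lamin B2 Kd replicate 3, chosen after seeing the data, gave 6, 0 and 4 (9.23, 4.67 and 15.9%). The causes of these differences were not tested. Where an array was left out, its group of 2 was assumed to vary like the others. No called gene of the 41 changed sign under any alternative. The 3 arrays per group and signals near background limit what can be called, above all for KPNA7.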
